A study of Nothobranchius furzeri with 15 samples.

Results

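Long exonic circular RNAs of single-circle host genes were described here: both ends lay in annotated exons, the host gene had exactly 1 circular RNA (circRNA) in the table, and the ends were 8000 bp or more apart. These criteria use position and annotation alone and chose 236 of 1810 circRNAs. They were measured by sequencing of ribosome-depleted total RNA from the African turquoise killifish Nothobranchius furzeri, a short-lived annual fish used to study ageing. All fish were of strain GRZ-AD, and the labels name no treatment. Brain and muscle were sampled at 3.5, 8.5 and 14 weeks of age, which the submitters call young, adult and old, with 3 brain libraries and 2 muscle libraries per age and 15 in all. The labels do not say whether each library came from 1 animal, so the p-values measure the spread between libraries, which may be technical. The samples are dissected tissue, where fewer cells of a type and less RNA per cell cannot be told apart.

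A circRNA forms when the splicing machinery joins the end of an exon to the start of an exon upstream of it. The loop has no free ends, is protected from enzymes that degrade RNA from its ends, and shares its exons with the messenger RNA of the same gene. CircRNAs are known to be abundant in nervous tissue of animals. The distance between the ends includes the introns of the host, so a distant pair of ends does not by itself mean a long circle. Each circRNA below bears the symbol of its host gene. Circular reads are those across its back-splice junction, linear reads are those the authors counted at the same position, and the circular share is circular reads as a percentage of circular plus linear reads.

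Over all 1810 positions, a library had between 1343 and 4400 circular reads and between 76515 and 135698 linear reads. The labelled tissues showed in the hosts of the table: 12 neuron markers summed to 47176 to 60629 CPM of linear reads (counts relative to the linear total of the library) in brain libraries and to 196.9 to 589.7 in muscle libraries, and none of 6 blood and immune markers hosted a circRNA. Muscle markers at 25 positions summed to 280000 to 319380 CPM in muscle libraries. In brain they summed to 1828 to 3737 in 7 libraries but to 23113 in library 2 and 16366 in library 3 of 3.5 weeks. Where leaving out those 2 libraries ended a call on a member named with its values, the value without them is given; 1 brain library of 3.5 weeks then remains, assumed in the fit to vary like the other groups.

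The 236 long circRNAs spanned a median of 13290 bp (quartiles 10019 and 19973), against 2217 bp for the 635 exonic circRNAs of single-circle hosts under the length threshold. All 236 were annotated to coding exons and had junction type 1 in the authors' table. They lay on 19 chromosomes, with 25 on chromosome 8, 19 on chromosome 6 and 3 on unplaced scaffolds, and 122 were on the plus strand. The longest were klhdc8b (83158 bp, chromosome 13, 29643953 to 29727110), strbp (60043 bp, chromosome 8), ryr2a (59073 bp, chromosome 16), spock1 (58124 bp, chromosome 2) and nrxn3a (54819 bp, chromosome 18). The longest were not those with the most reads: klhdc8b had 6 circular reads in brain, spock1 and nrxn3a 5 each and strbp 0, whereas ryr2a had 59. Over the 236 members, Spearman's rho across circRNAs between length and circular reads was 0.15 in brain and -0.16 in muscle. These are descriptions over positions that share the same libraries.

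Just inside the length threshold stood reck (8013 bp), an inhibitor of matrix metalloproteinases, with 10 circular reads in brain and 5 in muscle, ctnnd1.c2 (8053 bp) with 3 and 2, and pfkpa (8057 bp), a phosphofructokinase, with 11 and 0. Just outside it stood bend4 (7993 bp) with 9 and 0, LOC107393140 (7989 bp) with 6 and 0, and frmd4a (7909 bp) with 10 and 0.

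Most long circRNAs were found in brain. Circular reads were seen in brain alone for 128 (54.2%), in both tissues for 86 (36.4%), in muscle alone for 17 (7.20%) and in neither for 5 (2.12%). Among the short circRNAs of single-circle hosts, 37.2% were seen in brain alone, 45.5% in both and 9.13% in muscle alone. Over all 1810 circRNAs these were 43.4%, 41.3% and 7.73%. Brain had 9 libraries and muscle 6, which makes detection in brain more likely. Depth was thin: a long circRNA had a median of 8 circular reads over all 15 libraries (quartiles 6 and 14), 97 members (41.1%) reached the 10 reads needed for a test between tissues, and 8 reached 50. The 10 with the most reads held 26.5% of the members' circular reads. Because of that filter, counts over tested members are not counts over the 236.

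Summed over the members, the long circRNAs had a lower circular share than short ones in brain and a higher one in muscle. In brain the long circRNAs made up 1.88% ± 0.477 circular reads at their positions and the short ones 2.43% ± 0.512 (SD, n = 9), and the long circRNAs were below the short ones in 9 of 9 libraries. In muscle the long circRNAs reached 4.12% ± 1.92 and the short ones 1.73% ± 0.778 (SD, n = 6), with the long circRNAs above in 6 of 6 libraries. Over all circRNAs the share was 2.74% ± 0.438 in brain and 2.28% ± 0.879 in muscle. The long circRNAs were not alone in this order. Short ones of 2000 to 4000 bp stood at 1.89% ± 0.342 in brain and 4.44% ± 1.30 in muscle. The members were chosen with earlier results known, so no p is given for these sums. The sums weight each host by its reads: the median share per circRNA with 10 or more circular plus linear reads was 1.85% for long and 1.99% for short circRNAs in brain, and 2.01% for long and 3.12% for short circRNAs in muscle, where the order was the other way round. The long circRNAs held 8.09% of the circular and 12.01% of the linear reads of brain, and 5.77% of the circular and 3.15% of the linear reads of muscle. One member, si:ch211-200p22.4, held the most circular reads in muscle, and without it the share in muscle was 3.39% ± 1.43 (SD, n = 6), still above the short circRNAs in 6 of 6 libraries.

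Across ages, the pooled share of the long circRNAs in brain was 1.33%, 1.52% and 1.48% in the libraries of 3.5 weeks, 2.17%, 1.62% and 2.62% at 8.5 weeks and 2.22%, 2.41% and 1.54% at 14 weeks. The 3.5-week libraries were all lower than every older library, but library 3 of 14 weeks (exact binomial 95% interval 1.31% to 1.79%) overlapped library 2 of 3.5 weeks (1.30% to 1.77%). The brain library with the fewest reads had the lowest share at 8.5 and at 14 weeks and the highest at 3.5 weeks, and in muscle the library with fewer reads had the higher share at 8.5 and at 14 weeks. In muscle the share was 2.38% in both libraries of 3.5 weeks, 4.70% and 7.26% at 8.5 weeks and 3.00% and 5.02% at 14 weeks. The libraries of 8.5 and 14 weeks overlapped each other and lay above both of 3.5 weeks. The exact interval of library 1 of 14 weeks (2.44% to 3.65%) overlapped those of both 3.5-week libraries (1.84% to 3.02% and 1.89% to 2.94%). The short circRNAs were also lowest at 3.5 weeks in every library: they stood at 1.70% to 2.00% at 3.5 weeks, 2.58% to 3.17% at 8.5 weeks and 2.29% to 2.67% at 14 weeks in brain, and at 0.906% to 0.970%, 2.44% to 2.67% and 1.27% to 2.13% in muscle.

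**Figure D1:**
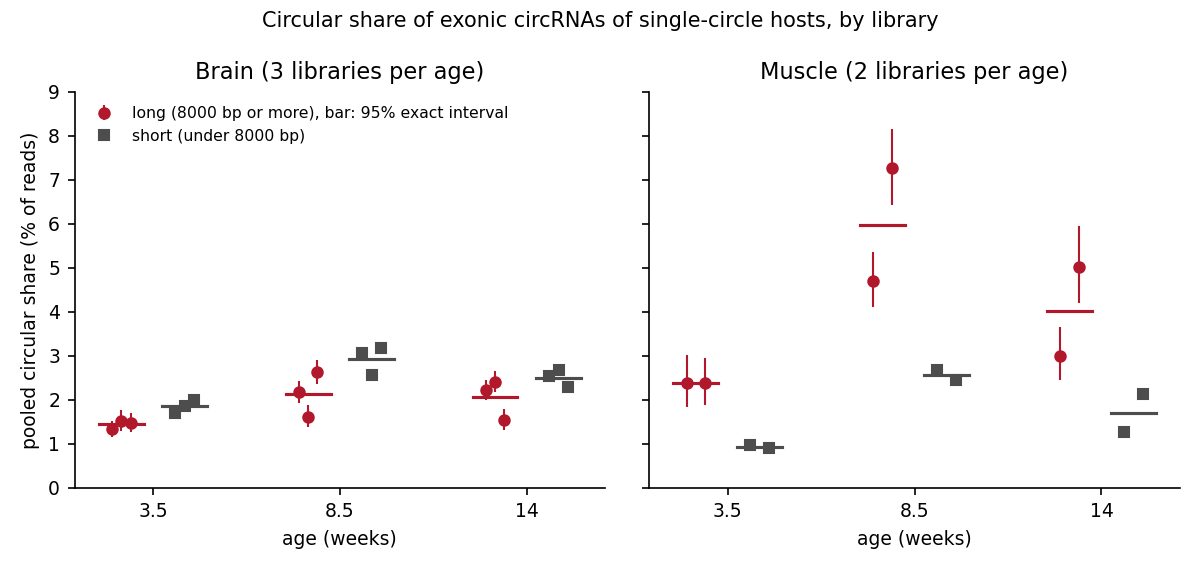
Pooled circular share (% of circular plus linear reads) in each library at 3 ages (weeks), for long circRNAs (red circles, with exact 95% binomial intervals) and short ones (grey squares) of single-circle hosts; horizontal lines are means of the 3 brain or 2 muscle libraries. The long circRNAs lie below the short ones in brain and above them in muscle, where they reach 7.26% at 8.5 weeks.

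Among members, the share did not follow length in steps. In brain it was 1.59% ± 0.457 for the 94 members of 8000 to 12000 bp, 2.16% ± 0.608 for the 84 of 12000 to 20000 bp and 1.96% ± 0.445 for the 58 of 20000 bp or more (SD, n = 9). In muscle it was 3.16% ± 1.65, 2.96% ± 1.63 and 10.1% ± 4.38 (SD, n = 6), and in the last group si:ch211-200p22.4 (22530 bp) held 175 of 317 circular reads. Without it the 57 others of that group were at 5.56% ± 1.84 in muscle (SD, n = 6). Those 58 had few linear reads in muscle, 45.6 per circRNA over the 6 libraries, against 113 for the 94 shortest members.

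**Figure D2:**
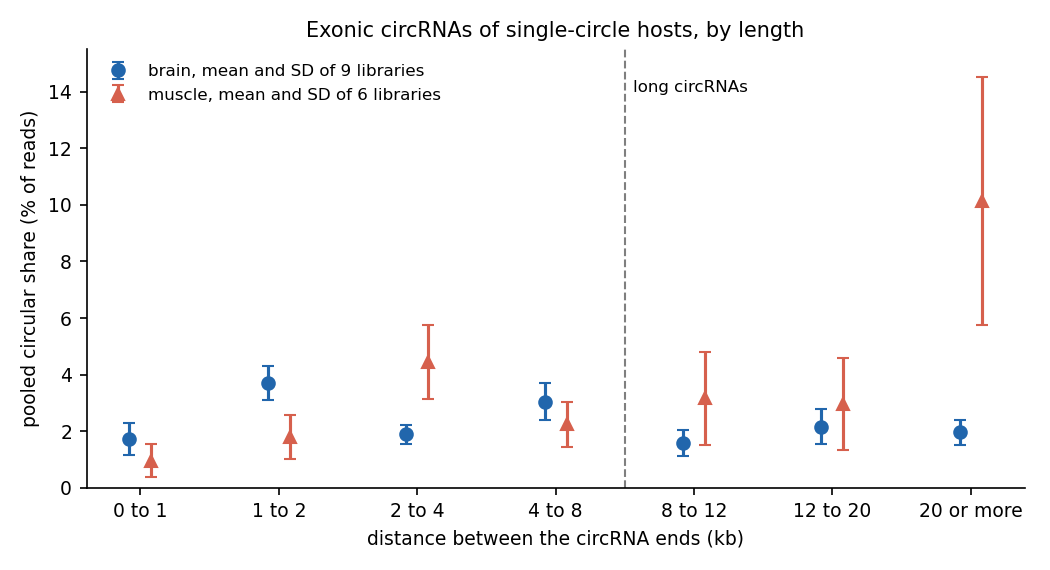
Pooled circular share (% of reads) of exonic circRNAs of single-circle hosts by distance between their ends (kb), as mean and SD of 9 brain libraries (blue circles) and 6 muscle libraries (orange triangles); the dashed line is the 8000 bp threshold. Long circRNAs of 20 kb or more are at 10.1% in muscle, of which si:ch211-200p22.4 holds 175 of 317 circular reads (5.56% without it), and no order by length is seen in brain.

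In brain the most abundant long circRNA came from dot1l, a histone methyltransferase (chromosome 17, 7645031 to 7654421, 9391 bp). It had 8, 7 and 4 circular reads in libraries 1, 2 and 3 of 3.5 weeks, 16, 10 and 26 at 8.5 weeks and 13, 20 and 11 at 14 weeks, with 60, 31 and 51, 42, 47 and 68, and 55, 52 and 50 linear reads beside them. Every brain library held it, all 6 older libraries were above the 3 young ones, and its circular share over brain was 20.1% (exact 95% interval 16.9% to 23.7%). It was followed by spg21 (chromosome 11, 47303808 to 47317392), the gene of maspardin, which is mutated in a human hereditary spastic paraplegia. Spg21 had 5, 5 and 6 circular reads at 3.5 weeks, 15, 10 and 14 at 8.5 weeks and 17, 25 and 5 at 14 weeks, and a share of 17.3% (14.3% to 20.6%). The lowest 14-week library of spg21 overlapped the young ones.

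Next was cadm2, a cell adhesion molecule of synapses (chromosome 7, 28077874 to 28091017), with 5, 0 and 7 circular reads at 3.5 weeks, 8, 2 and 16 at 8.5 weeks and 19, 17 and 3 at 14 weeks. Each age held a library with 3 or fewer reads of it. On a CPM scale that also uses TMM factors within a tissue, dot1l stood at 118 ± 58.6 CPM of circular reads, spg21 at 101 ± 50.7 and cadm2 at 72.2 ± 53.3 (SD, n = 9). These SDs span the ages and the circRNAs share the same libraries, and differences between neighbours in this order were not tested. Below them came xpr1a, a phosphate exporter, at 62.9 ± 51.6, the calcium release channel gene ryr2a at 59.7 ± 47.6, nol4l at 50.9 ± 21.0, klhl5, a kelch-like protein of ubiquitin ligases, at 40.5 ± 29.2, the protease gene furin at 35.8 ± 27.4, sbno2 at 30.2 ± 19.5 and the microtubule-binding clip1b at 29.4 ± 18.4. The highest shares in brain among members with 10 or more circular reads were 27.9% (21.5% to 35.1%) for nol4l, then dot1l and spg21, 14.6% for LOC107376203 and 13.1% for pex5l, an auxiliary subunit of HCN channels. None of the 75 members with 10 or more circular reads in brain reached as many circular as linear reads there. Among all circRNAs 22 of 639 did, and among the short ones of single-circle hosts 2 of 208.

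Muscle was led by si:ch211-200p22.4 (chromosome 1, 11824379 to 11846908), which had 6 and 10 circular reads in libraries 1 and 3 of 3.5 weeks, 66 and 58 in libraries 1 and 3 of 8.5 weeks and 11 and 24 in libraries 1 and 2 of 14 weeks. Linear reads at its position were 14 and 24, 89 and 64, and 32 and 28 in the same libraries. Both 8.5-week libraries stood above all others, and the circular share over muscle was 41.1% (36.4% to 45.9%), while in brain it was 3.47% (1.80% to 5.98%). By CPM of circular reads within muscle, LOC107388760 followed with 30 circular reads in muscle: 0 and 0 at 3.5 weeks, 7 and 17 at 8.5 weeks and 1 and 5 at 14 weeks. Next were ass1, argininosuccinate synthase of arginine synthesis, with 26 circular reads, dot1l with 19, esyt2, a tether between the endoplasmic reticulum and the plasma membrane, with 21, and xpr1a with 21. LOC107380889, annotated as dystrophin-like in the authors' table, had 19 circular reads, 14 of them in library 3 of 8.5 weeks. Spata20 had 19, 15 of them in that same library, spg21 had 18 and atp6v1h, a subunit of the vacuolar proton pump, had 15.

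In 3 of the 23 long circRNAs with 10 or more circular reads in muscle, circular reads equalled or outnumbered linear reads there, against 23 of 292 among all circRNAs. They were klhl5 with 12 circular and 10 linear reads, abca7, a lipid transporter of the ABC family, with 10 and 10, and LOC107388760 with 30 and 26. Of the 12 klhl5 reads, 11 came from library 3 of 3.5 weeks. Their exact intervals were wide, 32.2% to 75.6% for klhl5, 27.2% to 72.8% for abca7 and 39.7% to 67.0% for LOC107388760, and intervals cover counting error alone. In brain the shares of the same circRNAs were 9.53% for klhl5, 2.01% for abca7 and 3.45% for LOC107388760, the last from 1 circular read.

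**Figure D3:**
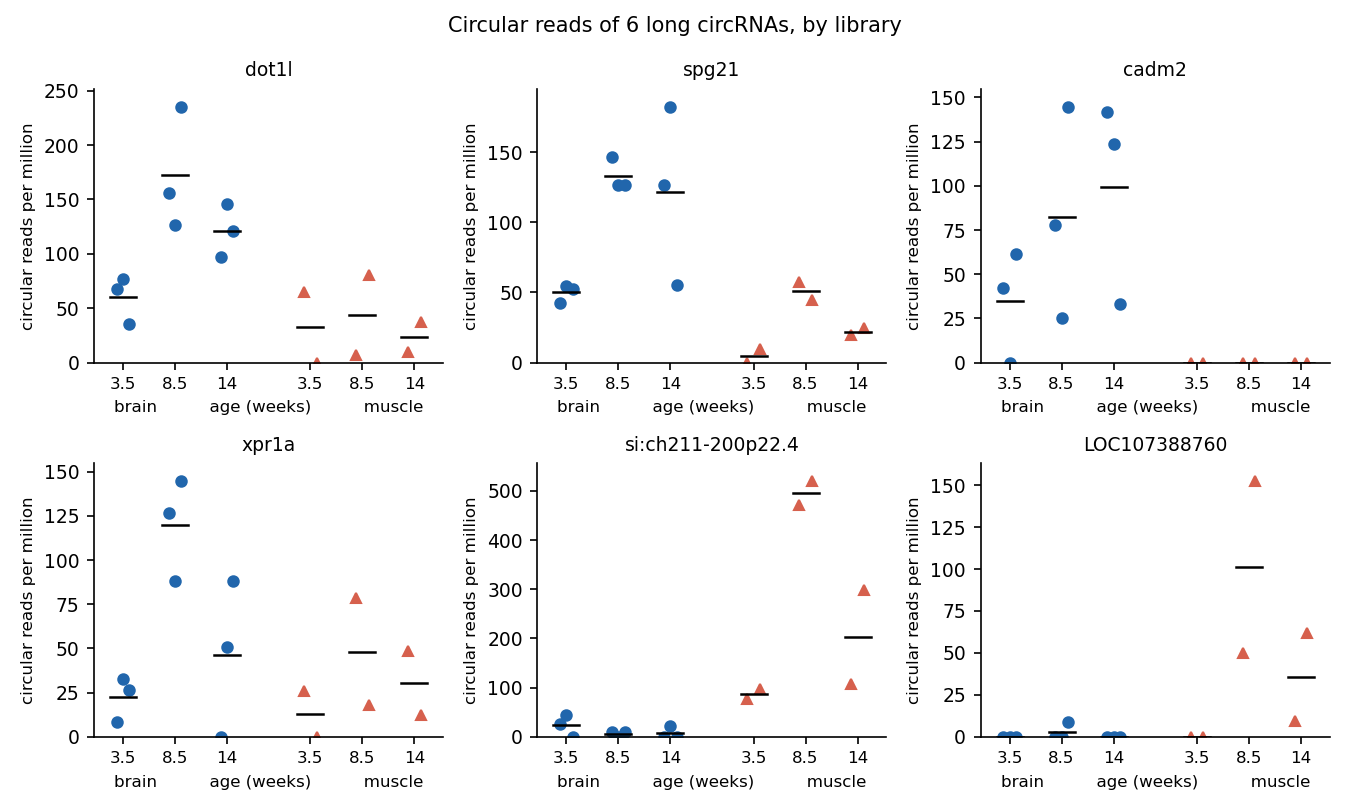
Circular reads (CPM of the linear library size, scaled within each tissue) in each library for 6 long circRNAs, by age (weeks) in brain (blue circles) and muscle (orange triangles); black lines are means of 3 brain or 2 muscle libraries. Dot1l, spg21 and xpr1a are lowest on average at 3.5 weeks in brain, cadm2 is at 0 in muscle, and si:ch211-200p22.4 is highest in muscle at 8.5 weeks.

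Between tissues, 4 long circRNAs were higher in brain and 3 were lower in brain than in muscle. The higher ones were cadm2, ryr2a, furin and pex5l, and the lower ones were si:ch211-200p22.4, esyt2 and ass1. These 7 of 97 members tested (7.22%) compare with 207 of all 896 circRNAs tested (23.1%), of which 8.37% were higher and 14.7% lower. At an unadjusted p under 0.05 there were 19 members (19.6%), against 34.3% of all. The median fitted log2 difference was 1.90 for the 97 members and 1.16 for all tested. It depends on circRNAs without reads in a tissue, 47 of the 97 members: with these at their bound against 3 reads, the medians were -0.08 and -0.20. The test was edgeR's quasi-likelihood test of brain over muscle, averaged over the ages, with Benjamini-Hochberg adjustment over all circRNAs tested at 0.05. An age at 0 reads in the tissue with more reads leaves this average unbounded on the log scale, so such a circRNA could not be called. In muscle LOC107388760, spata20 and LOC107380889 had 24, 17 and 15 circular reads at 8.5 weeks and 0 at 3.5 weeks. They count as tested but could not be called lower in brain. In brain dgkb, lrp8 and kcnh7 had 10, 9 and 8 circular reads at 14 weeks and 0 at 3.5 weeks. Ric8a had 10 at 3.5 weeks and 0 at 14 weeks, and these could not be called higher in brain. Such circRNAs were not counted among the members or among all. The 7.22% and 23.1% are therefore not shares of those that could be called.

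The 4 circRNAs higher in brain had 0 circular reads in the 6 muscle libraries, so their folds are lower bounds set against 3 reads over muscle. Cadm2 had 77 circular reads in brain, with linear reads of 640 in brain and 2 in muscle. It was at least 5.61-fold higher in brain (adjusted p = 0.00102). Ryr2a had 9, 2 and 0 circular reads in brain at 3.5 weeks, 1, 3 and 14 at 8.5 weeks and 10, 8 and 12 at 14 weeks, and was at least 4.30-fold higher (adjusted p = 0.00368). Its linear reads were 1283 in brain and 2 in muscle, so that a lack of circular reads in muscle goes with a lack of linear reads. Furin had 36 circular reads in brain (at least 2.62-fold higher, adjusted p = 0.0367) and pex5l had 28 (at least 2.04-fold higher, adjusted p = 0.0492). Pex5l was found in 8 of 9 brain libraries and had neither circular nor linear reads in muscle. These 2 calls were the weakest. Furin held in 13 of 23 alternatives, with an adjusted p between 0.000405 and 0.0884, and pex5l in 7 of 21, with an adjusted p between 0.000945 and 0.162. Leaving out any 1 muscle library ended both, and without brain libraries 2 and 3 of 3.5 weeks pex5l had an adjusted p of 0.0941. On plain totals the 4 bounds were larger, from 5.82-fold for pex5l to 16.0-fold for cadm2.

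Lower in brain was si:ch211-200p22.4, with 12 circular reads in brain and 175 in muscle (log2 difference -5.57, SE 0.47, adjusted p = 1.30e-29). All 6 muscle libraries held it, and 5 of 9 brain libraries did. Libraries 1, 2 and 3 of brain at 3.5 weeks had 3, 4 and 0 of its 12 brain reads, so that of the libraries with more muscle-marker reads library 2 held it and library 3 did not. Esyt2 had 0 circular reads in 9 brain libraries, against 0 and 7, 7 and 0, and 6 and 1 in muscle at 3.5, 8.5 and 14 weeks, and was at least 32.1-fold lower in brain (adjusted p = 1.68e-07), or at least 11.2-fold on plain totals. Ass1 had 8 circular reads in brain and 26 in muscle (log2 -3.60, SE 0.77, adjusted p = 3.55e-05). Esyt2 did not pass when muscle library 3 of 3.5 weeks or muscle library 1 of 8.5 weeks was left out. Ass1 did not pass when that 3.5-week library was left out, and 4 members were then called, with 133 of all 876 circRNAs. Each of these omissions left a muscle age at 0 circular reads of the circRNA concerned. With such an age it could not be called, as said above, so these omissions do not show a weaker difference.

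The number of long circRNAs called higher in brain depended on how brain and muscle libraries were scaled. Members called higher and lower were 4 and 3 with TMM factors of the linear counts, 5 and 3 with DESeq2 size factors, 31 and 3 with plain linear totals and 35 and 3 with TMM factors of the circular counts. Over all circRNAs the same splits were 75 and 132, 96 and 120, 297 and 90, and 331 and 89, with medians of log2 1.16, 1.28, 2.00 and 2.08. All 7 members were called under each of these 4 scalings, and DESeq2 called 5 of them, since furin did not pass and pex5l was given no adjusted p. On plain totals si:ch211-200p22.4 had a counting ratio of 0.0428 brain over muscle, against 0.0150 with TMM. The members with the most reads in both tissues were not called: dot1l had 115 circular reads in brain and 19 in muscle (ratio 1.32, counting interval 0.809 to 2.28), spg21 102 and 18 (1.24, 0.745 to 2.17) and xpr1a 58 and 21 (0.603, 0.361 to 1.05). On plain totals these ratios were 3.78 for dot1l, 3.53 for spg21 and 1.72 for xpr1a, and dot1l and spg21 were then called higher in brain.

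**Figure D4:**
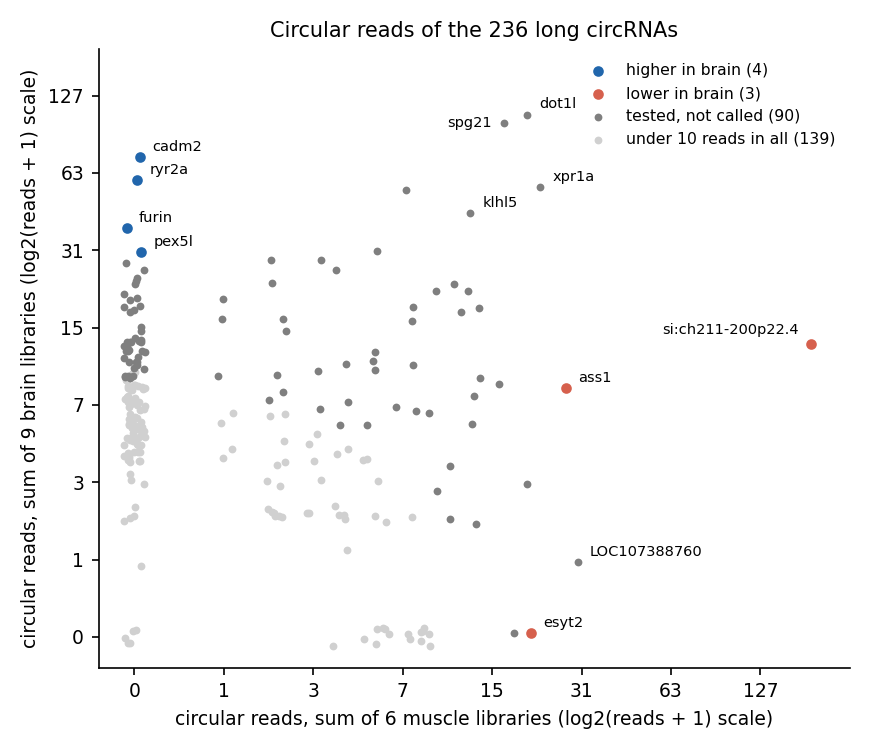
Circular reads of each of the 236 long circRNAs summed over 9 brain libraries (vertical) and 6 muscle libraries (horizontal), both on a log2(reads + 1) scale, with small random offsets so that points at equal counts are seen. The 4 called higher in brain (blue) are at 0 in muscle, and si:ch211-200p22.4, with 175 reads in muscle and 12 in brain, is the farthest right of the 3 called lower (orange).

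The circular share differed between tissues in 1 of 97 members, si:ch211-200p22.4 (log2 of the circular to linear ratio -4.00 in brain over muscle, SE 0.68, adjusted p = 5.42e-07 by edgeR's quasi-likelihood test). Its linear reads were 334 in brain and 251 in muscle, and on the scaling of the test they were lower in brain too, by less than the circular reads (log2 -1.54, SE 0.18, adjusted p = 4.91e-09). Of all 896 circRNAs tested, 35 (3.91%) differed, all with a lower share in brain. At an unadjusted p under 0.05 there were 5 members (5.15%), against 10.6% of all. The edgeR test of the share has the same limit for a circRNA at 0 circular reads at an age. In muscle LOC107388760 and abca7 had 24 and 10 circular reads at 8.5 weeks and 0 at 3.5 weeks, so they could not be called lower in brain. DESeq2 called more, 21 members lower and 1 higher in brain, of 164 lower and 21 higher in all.

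The linear reads of the hosts of long circRNAs mostly followed the tissue. Of 234 members tested, 145 were higher and 43 lower in brain (edgeR's quasi-likelihood test), in all 80.3% called against 72.8% of 1771 positions tested, of which 47.9% were higher and 24.8% lower. With plain totals 199 members were higher and 13 lower (90.6% called), and of all positions 1370 were higher and 189 lower (88.0% called). At the brain end stood hosts with next to no linear reads in muscle: elavl4, a neuronal RNA-binding protein, had 1599 linear reads in brain and 2 in muscle, sult4a1, a brain sulfotransferase, 1054 and 1, slc8a4a, a sodium-calcium exchanger, 949 and 1, LOC107390975 874 and 0, and brinp3a.2 375 and 0. At the muscle end were LOC107377376 with 22 linear reads in brain and 186 in muscle, palld, the actin-binding palladin, with 13 and 105, LOC107380889 with 234 and 1382 (log2 -4.71, SE 0.15, adjusted p = 2.52e-23), col5a1, a chain of collagen V, with 292 and 1175, and slc6a16a with 64 and 295. In the tissue where they were higher, these 10 hosts had from 4 circular reads (col5a1) to 19 (LOC107380889). Elavl4 had 9 circular reads in brain, a share of 0.560% (0.256% to 1.06%), and palld had 6 in muscle, a share of 5.41% (2.01% to 11.4%).

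Of the 236 hosts, 62 (26.3%) belonged to at least 1 of 13 gene lists, against 20.6% of hosts of short circRNAs. The lists were chosen with earlier results of these data known, so this difference is not a result about the members. In linear reads the neuronal lists were higher in brain. All 7 active zone and synaptic vesicle hosts were higher in brain (median log2 5.56, against 0.72 for all positions), among them rims1b, which organises vesicle release sites, with 394 linear reads in brain and 1 in muscle. By DESeq2, 6 of these 7 were called higher and erc2 was not called. Also higher were the 4 hosts of the ion channel and transporter list (ryr2a, trpc5a, kcnh7 and kcnh1; slc6a16a, lower in brain, is not on it), 4 of 5 synapse receptor and scaffold hosts (median 5.34) and 8 of 11 axon guidance and cell adhesion hosts (median 4.18). The AMPA receptor subunit gene gria2 had 3073 linear reads in brain and 7 in muscle, but 6 circular reads in brain, and homer1b was the 1 synapse host that did not pass. Of 7 kinase and phosphatase hosts, 6 were higher in brain and jak1 was lower.

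The other lists are to be read beside the 47.9% higher and 24.8% lower of all positions. Of 8 small GTPase regulators, 4 were higher and 3 (dock1, farp2 and itsn2b) lower in brain, of 7 chromatin and transcription hosts 4 were higher and mef2c lower, and of 3 RNA processing hosts 2 were higher and qkia lower. Membrane traffic had 3 of 4 higher, cytoskeleton and motors 2 higher and ank3b lower of 3, and the ubiquitin system 1 higher and smurf2.c1 lower of 3. Mef2c, a transcription factor of muscle and neurons and the 1 member of the sarcomere and muscle list, had 494 linear reads in brain and 732 in muscle. On plain totals mef2c alone of these was lower: jak1, qkia, ank3b and smurf2.c1 were then called higher in brain, and dock1, farp2 and itsn2b were not called. Of 3 hosts of circRNAs known from mammals, rims1b and fat3 were higher and homer1b did not pass. In circular reads ryr2a was the 1 member of any list called. Shank2 had 19 circular reads in brain, rims1b 11 and homer1b 3, and 3, 1, 2 and 3 members of the synapse, active zone, axon guidance and ion channel lists had the 10 reads needed for a test.

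Across the ages, 0 of 75 long circRNAs tested in brain changed in circular reads at any step by edgeR's quasi-likelihood test or by DESeq2. Of all 639 circRNAs tested in brain, 1 changed at 8.5 over 3.5 weeks (0.156%), 0 at 14 over 8.5 weeks and 1 at 14 over 3.5 weeks (0.156%). At an unadjusted p under 0.05 there were 9, 6 and 13 of the 75 members, the last 17.3%, against 9.39%, 4.85% and 9.86% of all. The median fitted log2 change at 14 over 3.5 weeks was 0.84 for members and 0.34 for all tested (0.83 and 0.33 with bounds for circRNAs at 0 reads in one age), and at 8.5 over 3.5 weeks 0.51 and 0.47. The 3.5-week libraries are shared by both comparisons.

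The members with the smallest p in brain at 8.5 over 3.5 weeks were xpr1a, dot1l and plcl5. Xpr1a had 13, 7 and 16 circular reads at 8.5 weeks and 1, 3 and 3 at 3.5 weeks, with no overlap between these ages (a ratio of 5.68 with a counting interval of 2.49 to 15.1, adjusted p = 0.167). At 14 weeks it had 0, 7 and 8. Its linear reads were 164 at 8.5 weeks and 217 at 3.5 weeks, and its circular share was 18.0% (12.9% to 24.0%) at 8.5 weeks and 3.12% (1.27% to 6.33%) at 3.5 weeks. Dot1l, with the values above, had 52 circular reads at 8.5 weeks and 19 at 3.5 weeks (ratio 3.02, 1.76 to 5.41, adjusted p = 0.279). Plcl5 had 5, 0 and 12 at 8.5 weeks and 0, 0 and 1 at 3.5 weeks (ratio 18.8, 2.94 to 784, adjusted p = 0.279). None of the 3 passed under any alternative run.

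At 14 over 3.5 weeks in brain, ric8a, a chaperone of G protein subunits, had 0 circular reads at 14 weeks and 3, 6 and 1 at 3.5 weeks (at least 3.74-fold lower, adjusted p = 0.417). Klhl5 had 9, 11 and 6 at 14 weeks and 0, 0 and 5 at 3.5 weeks, with no overlap (ratio 4.63, 1.75 to 15.4, adjusted p = 0.417). Dgkb, a diacylglycerol kinase, had 4, 6 and 0 at 14 weeks and 0 in every library at 3.5 weeks (at least 2.97-fold higher, adjusted p = 0.417). At 14 over 8.5 weeks LOC107376203 had 10, 6 and 2 at 14 weeks and 0 in each 8.5-week library, though 5 in library 2 of 3.5 weeks (at least 4.84-fold higher than at 8.5 weeks, adjusted p = 0.973). Rasgrp2, an exchange factor for small GTPases, had 0, 1 and 0 at 14 weeks and 0, 4 and 8 at 8.5 weeks, and si:ch211-126j24.1 had 0 at 14 weeks and 0, 2 and 6 at 8.5 weeks (adjusted p = 0.973 each). In none of these 6 did the call change under any alternative run.

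In muscle, 0 of 23 long circRNAs tested changed in circular reads at any step by edgeR's quasi-likelihood test. Of all 292 circRNAs tested in muscle, 4 changed at 8.5 over 3.5 weeks (1.37%), 0 at 14 over 8.5 weeks and 1 at 14 over 3.5 weeks (0.342%). At an unadjusted p under 0.05 there were 4 members, 1 and 1, or 17.4%, 4.35% and 4.35% of those tested, against 17.8%, 1.03% and 8.9% of all. The median fitted log2 change at 8.5 over 3.5 weeks was 1.96 for members and 1.23 for all tested, at 14 over 8.5 weeks -1.17 and -0.56, and at 14 over 3.5 weeks 1.27 and 0.74. With bounds for circRNAs at 0 reads in one age these were 1.07 and 0.83, -1.07 and -0.56, and 0.41 and 0.38.

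The smallest p in muscle belonged to si:ch211-200p22.4, with 124 circular reads at 8.5 weeks and 16 at 3.5 weeks (a ratio of 5.53 with a counting interval of 3.27 to 9.97, adjusted p = 0.0816). Its 2 libraries of 8.5 weeks, with 66 and 58 reads, lay far above the 6 and 10 of 3.5 weeks, and it passed in 9 of 13 alternatives, with an adjusted p of 0.000733 to 0.527 over them. DESeq2 called 2 members at this step, si:ch211-200p22.4 (adjusted p = 0.00189) and LOC107388760 (adjusted p = 0.0277), and 0 at the other 2 steps. Over all 292 circRNAs DESeq2 called 26 (8.9%) at this step, 2 at 14 over 3.5 weeks and 0 at 14 over 8.5 weeks. With 7 and 17 circular reads at 8.5 weeks, against 0 and 0 at 3.5 weeks, LOC107388760 was at least 5.70-fold higher (edgeR adjusted p = 0.204). Spata20 was at least 4.04-fold higher, from 2 and 15 circular reads at 8.5 weeks and none at 3.5 weeks (adjusted p = 0.265).

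At 14 over 8.5 weeks in muscle si:ch211-200p22.4 had 35 circular reads at 14 weeks and 124 at 8.5 weeks (ratio 0.387, 0.258 to 0.567, adjusted p = 1.00). Abca7 had 0 at 14 weeks and 4 and 6 at 8.5 weeks, and spata20 had 2 and 0 at 14 weeks and 2 and 15 at 8.5 weeks (adjusted p = 1.00 each). At 14 over 3.5 weeks atp6v1h had 3 and 7 at 14 weeks and 0 and 0 at 3.5 weeks, LOC107388760 1 and 5 against 0 and 0, and the lymphocyte transcription factor gene ikzf2 1 and 6 against 0 and 0 (adjusted p = 0.479 each). With 2 libraries per age, single libraries carry most of these reads.

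No change of the circular share with age was detected for a long circRNA in either tissue by edgeR's quasi-likelihood test or by DESeq2. It passed in 0 of 75 members at the 3 steps in brain (7, 6 and 12 at an unadjusted p under 0.05 for 8.5 over 3.5, 14 over 8.5 and 14 over 3.5 weeks) and in 0 of all 639 circRNAs (6.57%, 5.48% and 8.14% unadjusted). In muscle it passed in 0 of 23 members (2, 0 and 2 unadjusted), against 1 of all 292 (0.342%) at 8.5 over 3.5 weeks and 0 at the other steps (15.4%, 2.4% and 11% unadjusted). The smallest p-values in brain at 8.5 over 3.5 weeks were those of xpr1a (log2 change of the ratio 2.65, SE 0.92, adjusted p = 0.597), plcl5 and LOC107384353. At 14 over 3.5 weeks they were those of ric8a, exoc4, a subunit of the exocyst, and dgkb, and at 14 over 8.5 weeks those of LOC107376203, si:ch211-126j24.1 and LOC107392897. In muscle they were those of LOC107380889 (adjusted p = 0.196), kiaa0368 and spata20 at 8.5 over 3.5 weeks, atp6v1h, LOC107380889 and ass1 at 14 over 3.5 weeks, and abca7, qkia and wizb at 14 over 8.5 weeks.

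The share of ass1 was not distinguishable between ages at this depth, while its linear reads changed. Its linear reads in muscle were 63 and 31 at 14 weeks, 119 and 108 at 8.5 weeks and 227 and 212 at 3.5 weeks, while its circular reads were 2 and 5, 6 and 7, and 0 and 6. The share was 6.93% (2.83% to 13.8%) at 14 weeks and 1.35% (0.496% to 2.91%) at 3.5 weeks, a difference that did not pass (adjusted p = 0.469).

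An interaction term tested if brain and muscle differed in the change of circular reads at 14 over 3.5 weeks. It passed in 0 of 97 members and 0 of 896 circRNAs by edgeR's quasi-likelihood test and by DESeq2 (4 members, and 5.47% of all circRNAs, at an unadjusted p under 0.05). Members beyond the 38 smallest p in edgeR had an SE of 354.79 or more, among them cadm2 and ryr2a, which had no circular reads in muscle. For those members the term could not be estimated, so they could not pass, though they are counted in the 97. The smallest p among members was that of klhl5 (adjusted p = 0.360), which had 26 circular reads at 14 weeks and 5 at 3.5 weeks in brain, and 0 and 11 in muscle. It was followed by pard3ab, a cell polarity gene, and exoc4 (adjusted p = 0.492 and 0.702).

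The linear reads of some hosts did change with age. In brain at 8.5 over 3.5 weeks 6 of 234 members rose (helz2, kcnab1b, LOC107395712, qkia, LOC107381054 and mprip.c1) and 1 fell (col5a1), 2.99% of members against 2.62% of all 1753 positions. At 14 over 3.5 weeks helz2, LOC107381054 and mprip.c1 rose and col5a1 fell, 1.71% against 2.85%, and at 14 over 8.5 weeks 0 passed among members or among all (5 members and 3.71% of all unadjusted, 0 members by DESeq2). Without brain libraries 2 and 3 of 3.5 weeks, which leaves 1 library of that age, 1 member passed at each step, helz2, and calls over all positions numbered 9 at 8.5 weeks and 6 at 14 weeks, against 46 and 50 with them. Without library 3 alone 2 members passed at 8.5 weeks and 1 at 14 weeks. Over all 1736 positions then tested, 21 and 23 passed.

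Helz2, a helicase known in mammals as an interferon-induced gene (chromosome 6, 51732668 to 51754225), had 134, 25 and 54 linear reads in brain at 8.5 weeks and 80, 128 and 91 at 14 weeks, against 19, 13 and 14 at 3.5 weeks, with no overlap. The log2 change was 2.32 (SE 0.42, adjusted p = 0.00323) at 8.5 weeks and 2.54 (SE 0.41, adjusted p = 0.00119) at 14 weeks, and against library 1 of 3.5 weeks alone, with 19 reads, it was 2.16 (adjusted p = 0.0385) and 2.39 (adjusted p = 0.0127), where the spread comes from the other groups. In muscle helz2 also rose, with 59 and 9 linear reads at 8.5 weeks (log2 2.35, SE 0.66, adjusted p = 0.0204) and 31 and 25 at 14 weeks (log2 2.60, SE 0.66, adjusted p = 0.0130), against 2 and 7 at 3.5 weeks. Those muscle calls held in 8 of 12 alternatives at 8.5 weeks (adjusted p up to 0.732) and in 7 of 11 at 14 weeks (up to 0.479). The first was lost with DESeq2 and without library 1 of 3.5 or of 8.5 weeks, and the second without library 1 of 3.5 weeks or either 14-week library. Both were also lost with the library number as a further term in the fit. The helz2 circRNA had 4, 0 and 4 circular reads in brain at 8.5 weeks, 2, 4 and 1 at 14 weeks and 0 at 3.5 weeks.

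Col5a1 had 8, 11 and 14 linear reads in brain at 8.5 weeks and 27, 21 and 11 at 14 weeks, against 25, 69 and 106 at 3.5 weeks. The high values were in libraries 2 and 3 of 3.5 weeks, those with more muscle-marker reads, and in muscle col5a1 had 122 to 238 linear reads per library. Library 3, with fewer muscle-marker reads than library 2, had more col5a1 reads, and the part of muscle reads in the change was not tested. Without these 2 libraries its log2 change was -0.88 (adjusted p = 0.637) at 8.5 weeks and -0.37 (adjusted p = 0.908) at 14 weeks, against -2.46 and -1.96 with them. Without the 2 libraries, kcnab1b, a potassium channel subunit, stood at a log2 change of 0.89 at 8.5 weeks (adjusted p = 0.266), against 1.09 with them, and LOC107395712 at 0.92 (adjusted p = 0.349), against 1.06. At 14 weeks mprip.c1, which binds myosin phosphatase, stood at 0.82 (adjusted p = 0.149), against 0.67, and LOC107381054 at 0.91 (adjusted p = 0.0652), against 0.72, so these 4 lost the call with changes of a similar size. Mprip.c1 had 236, 252 and 188 linear reads in brain at 14 weeks and 128, 124 and 126 at 3.5 weeks. These ages did not overlap.

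In muscle at 8.5 over 3.5 weeks the linear reads of 6 of 162 members rose and 3 fell, 5.56% of members against 5.27% of all 1253 positions. Ppargc1a, the coactivator of mitochondrial biogenesis, had 92 and 45 linear reads at 8.5 weeks and 9 and 23 at 3.5 weeks (log2 1.60, SE 0.42, adjusted p = 0.0119). Si:ch211-200p22.4 rose in linear reads by log2 1.52 (SE 0.39, adjusted p = 0.00906). Among the others, helz2, map7d1 and slc6a16a rose as well. Ass1 fell (log2 -1.46, SE 0.26, adjusted p = 9.74e-05), as did the ubiquitin ligase gene uhrf2, with 6 and 7 linear reads at 8.5 weeks and 27 and 18 at 3.5 weeks (adjusted p = 0.0234), and the centrosomal sdccag8, with 8 and 6 at 8.5 weeks and 16 and 30 at 3.5 weeks (adjusted p = 0.0412). Uhrf2 held in 7 of 12 alternatives and sdccag8 in 4 of 12, and both were lost with DESeq2 and with plain totals. Without library 1 of 8.5 weeks ass1 alone passed, without library 1 of 3.5 weeks 4 did and without library 3 of 8.5 weeks 5 did. Over all positions 30 of 1201 (2.5%), 46 of 1233 (3.73%) and 37 of 1218 (3.04%) passed in these settings.

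At 14 over 3.5 weeks in muscle helz2 rose and ass1 and LOC107380889 fell, 1.85% of members against 2.71% of all. Ass1 fell by 2.31 on the log2 scale (SE 0.28, adjusted p = 2.41e-08), with 63 and 31 linear reads at 14 weeks and 227 and 212 at 3.5 weeks, and passed under all 12 alternatives. LOC107380889 had 164 and 104 at 14 weeks and 248 and 325 at 3.5 weeks (log2 -1.15, SE 0.23, adjusted p = 0.00153), and held in 11 of 12 alternatives (adjusted p up to 0.125). It was lost with the library number as a further term in the fit. At 14 over 8.5 weeks 0 members passed (8 unadjusted, 0 by DESeq2), against 0.479% of all (6.38% unadjusted). In brain ass1 had 26 to 56 linear reads per library and was called at no step.

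**Figure D5:**
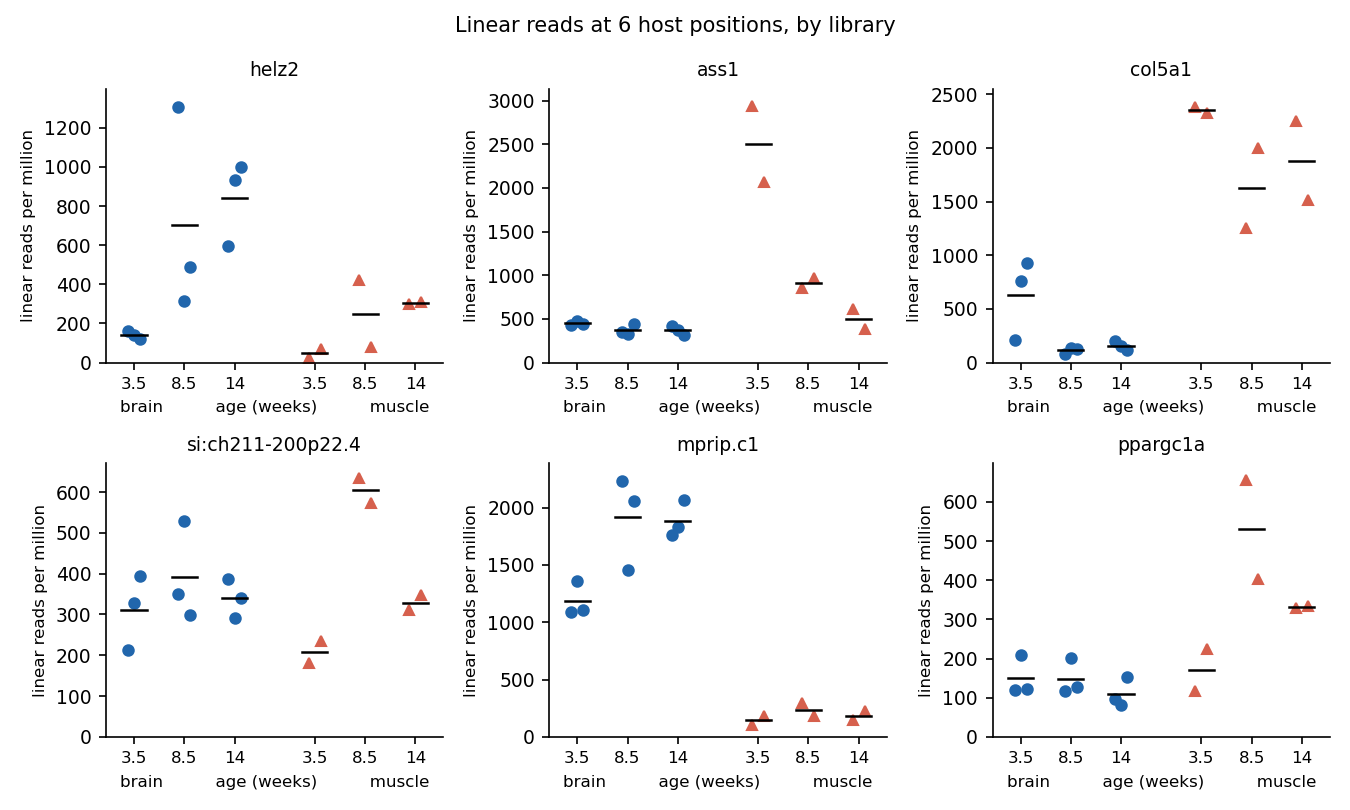
Linear reads (CPM, scaled within each tissue) at 6 host positions in each library, by age (weeks) in brain (blue circles) and muscle (orange triangles); black lines are means of 3 brain or 2 muscle libraries. Helz2 is lowest at 3.5 weeks in both tissues, ass1 in muscle is highest at 3.5 weeks, and the high brain values of col5a1 are those of 2 libraries of 3.5 weeks.

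The authors' deposited table of p-values for neighbouring ages listed 16 members in adult against young brain, with 4 under 0.05 (xpr1a at 0.000751, dot1l at 0.0130, spg21 at 0.0166 and cadm2 at 0.0361). All 251 circRNAs listed there had 14.7% under 0.05. The authors named this test bbtest_linear. Whether it compares circular reads or the circular share was not established here, so its p-values are not set beside those above. The other deposited comparisons had 0 of 21 members under 0.05 in old against adult brain (6.08% of all listed), 3 of 14 in adult against young muscle (25.4%; kiaa0368, spg21 and ass1) and 1 of 17 in old against adult muscle (7.11%; ehd3). After Benjamini-Hochberg adjustment over each of the authors' deposited tables, 0 members passed in any of them, against 7 of 228 circRNAs in adult against young muscle and 0 in the other 3.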

How the data were processed

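RNA was ribosome-depleted and sequenced as paired reads from stranded libraries, per the labels' protocols. STAR 2.5.2b is named in the submitters' processing notes. Not given in the sources used here are the circRNA caller, the genome build and the definition of a linear read, and coordinates are those of the authors' table. The authors deposited whole-number read counts per circRNA, circular and linear, for 15 libraries, and p-values of their own test of neighbouring ages.

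Members were chosen by rule, and members, gene lists, markers and named genes were chosen with earlier results of these data known. Names are those of the file for 129 members, of a RefSeq table matched by gene identifier (assembly NfurGRZ-RIMD1, names only) for 75, and identifiers for 32; where a symbol repeats, .c1 and .c2 tell positions apart. Named were the members with the highest reads or shares per tissue, those past the threshold or else with the smallest p, the longest, those beside the length threshold and the leading members of each list.

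The test of counts was the quasi-likelihood F test of edgeR 4.0.16 (R 4.3.3) on positions with 10 or more reads over the libraries compared, with library sizes of linear totals times TMM factors of the linear counts, and Benjamini-Hochberg adjustment at 0.05. Circular share was tested as the interaction of read type and group with paired columns. CPM used these library sizes within a tissue, so brain and muscle levels are not on one scale. Folds against a group without reads use a floor of 3 reads over that group, ratios have exact 95% binomial intervals, and intervals and floors cover counting error alone. DESeq2 1.42.0, other scalings and filters, and leaving out each library were alternatives. Leaving out brain libraries 2 and 3 of 3.5 weeks together, and the member with the most circular reads (over all members or in the longest class), were chosen after seeing the data. Each model was run on simulated data with large set changes and a fixed spread. That spread was not matched to these reads, so the runs do not show how well smaller changes are found. The values of 1 member that passed in linear reads are not reported here.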

Additional observations from a re-analysis of the deposited data

How the results depend on the processing

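Depth limits what can be seen: 97 of 236 members had 10 circular reads or more and 23 had them in muscle, and with 2 muscle libraries per age 1 library can carry a value. Of alternatives for single members, 1021 kept direction and side of the threshold, 75 lost it, 11 gained it and 1 reversed: spata20 in circular reads of muscle at 14 over 8.5 weeks was at log2 0.24 with a replicate block, against -2.71 without. The 1021 include members not called in the main test, for which staying uncalled counts as kept. The 75 concern only members called in the main test. Of those for counts and pooled shares, 333 stayed and 29 moved. Members called in circular reads between brain and muscle were 7 in the main test and 4 to 8 without 1 library. They were 38 with TMM factors of the circular counts and 34 with plain totals, of which 35 and 31 were higher in brain. In circular reads of muscle at 8.5 over 3.5 weeks, 0 in the main test, DESeq2 called 2 and plain totals 2, while 1 was called with the replicate block, 1 under a minimum of 30 reads, 1 when no filter was used and 1 with TMM factors of the circular counts, and 0 to 1 without 1 library. Over all 292 circRNAs 4 were called in the main test, 26 with DESeq2 and 24 with plain totals. The replicate block gave 12 and TMM factors of the circular counts 6. A minimum of 30 reads gave 7 of 90, and no filter 5 of 887. The circular share between tissues differed in 22 members with DESeq2, against 1. Linear calls in brain were 1 at 8.5 over 3.5 weeks and 1 at 14 over 3.5 weeks without brain libraries 2 and 3 of 3.5 weeks, against 7 and 4, where 1 library of 3.5 weeks remains, and 2 to 8 and 1 to 5 without 1 library. In muscle they were 5 with DESeq2 and 1 to 11 without 1 library at 8.5 over 3.5 weeks, against 9, and 6 with plain totals, 1 with the replicate block and 3 to 4 without 1 library at 14 over 3.5 weeks, against 3. Over all 1253 muscle positions DESeq2 called 45 at 8.5 over 3.5 weeks, against 66. At 14 over 3.5 weeks plain totals called 47 and the replicate block 11, against 34. Linear calls between tissues were 173 to 186 without 1 library, against 188. The pooled share of muscle, 4.12%, was 2.01% as a median over members and 3.50% to 4.47% without 1 library, and that of brain was 1.79% to 1.95% without 1 library; for members of 20000 bp or more in muscle it was 10.1%, and 5.56% without si:ch211-200p22.4. The cause of these moves was not tested unless stated. Same-numbered libraries correlated above 0.1 in 0 of 9 brain pairs in circular and in linear reads, so the numbers did not pair brain libraries. In muscle they did so in 3 of 4 pairs in circular reads, against 1 of 8 differently numbered pairs, and in 0 of 4 in linear reads. With 2 libraries per age these muscle values mirror each other, so a pairing in muscle was left undecided. Correlations between same-numbered brain and muscle libraries were not computed, and the main test between tissues treats the 15 libraries as unpaired. With the replicate block, 5 members were called in circular reads between tissues. Linear calls were then 7 and 4 in brain at 8.5 and 14 over 3.5 weeks and 7 in muscle at 8.5 over 3.5 weeks.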
